A study of Mus musculus with 24 samples.

Results

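Macrophages labelled as tumour-associated and taken from naive mice (TAM naive, 3 arrays) were set against marrow macrophages polarized with interferon-gamma and lipopolysaccharide (M1, 4 arrays), which is 7 of the 24 arrays of the series. The members were chosen by their labels, and the 2nd of the 4 TAM naive arrays, which the submitters had excluded, was left out. All groups came from C57BL/6 males aged 10 weeks that carried no genetic change named in the labels and had not had sepsis. TAM naive cells were separated on Percoll (70/30) and kept after 1 hour of adhesion, with no culture or cytokine step named and no tumour line named. M1 cells were mononuclear marrow progenitors isolated by adhesion and grown for 7 days in RPMI with 20% L929 supernatant and 10% fetal bovine serum. At day 3 they were polarized with 50 ng/mL interferon-gamma plus 10 ng/mL lipopolysaccharide. Unpolarized cultures of naive marrow (M0 naive, 4 arrays), grown the same way without those agents, are given beside them as levels only. Cells freshly adhered from a tumour and cells grown from marrow therefore differed in source, culture and stimulus at once, and these cannot be told apart here. The submitters describe 3 tumour experiments with 4 naive samples in each, of which the best 4 of 12 by absorbance ratios went onto arrays. Marrow cultures came from 2 experiments of 3 samples per group, from which the best 4 were taken. The labels do not say which sample came from which experiment, so the p-values measure the spread between chosen samples.

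Interferon-gamma signals through JAK kinases, and lipopolysaccharide through TLR4 and its adaptors to NF-kB and interferon-beta. Macrophages that receive both make nitric oxide, itaconate, inflammatory cytokines and interferon-inducible GTPases, and load more peptide on MHC molecules. Tumour macrophages are usually described as mixed populations of monocyte origin whose state is set by local signals such as hypoxia, lactate, CSF1 and IL-4, and an adherent fraction of a tumour can also hold tumour cells, fibroblasts and other leukocytes.

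Levels are log2 of the processed intensity of a probe minus the 75th percentile of its array, so that 0 is the level of a bright probe, and each unit is a doubling. A change is the TAM naive mean minus the M1 mean, with its standard error (SE) from limma. A gene was called when its p-value, adjusted over all genes tested by the Benjamini-Hochberg method, was below 0.05 (two-sided). No spot was saturated, and 63.7 to 66.7% of probes stood well above background on TAM naive arrays and 56.9 to 65.9% on M1 arrays. The arrays lay on 3 slides, each of which held at least 1 array of each group. Array values correlated at 0.961 to 0.974 among TAM naive arrays, at 0.958 to 0.991 among M1 arrays and at 0.764 to 0.835 between the groups. Scanner files were used throughout, because 22 of the 24 columns of the deposited value table ranked the probes more like another sample's scanner file than like their own. By the scanner files, Nos2, the inducible nitric oxide synthase, stood at 8.55 to 8.91 on the 4 M1 arrays and at no more than 2.46 on the other 20 arrays of the series. Dct, a melanin enzyme, was well above background on all 8 arrays labelled TAM and on 0 of the 16 arrays of marrow cultures. Neither gene tells naive from post-sepsis arrays, and that part of the labels was not checked.

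The defining macrophage genes were low on the arrays labelled TAM naive. Of 18 macrophage identity genes measured, 16 were lower than in M1, 1 was higher and 1 was not called, with a median change of -4.71 against 0.27 over all genes tested. Over all 29447 genes, 22.9% were called lower and 26.0% higher in TAM naive. Adgre1, which encodes the F4/80 antigen of mouse macrophages, had levels of -0.95, -0.11 and -0.93 in TAM naive, against 6.99, 6.64, 6.76 and 6.88 in M1 (change -7.48, SE 0.26, adjusted p = 1.4e-07). M0 naive arrays had 6.61 to 7.16, so M1 and M0 naive overlapped and TAM naive stood far below both. Csf1r, the receptor for the growth factor CSF1, had levels of 2.11, 3.24 and 2.30 in TAM naive and 8.60, 8.35, 8.38 and 8.62 in M1 (change -5.94, SE 0.29, adjusted p = 7.4e-07), and its 3 probes ranged from -6.62 to -0.63. Its groups did not overlap. Cybb, the catalytic subunit of the phagocyte oxidase, changed by -6.72 (SE 0.32) and Mpeg1, the pore-forming perforin-2 of macrophages, by -6.59 (SE 0.23). The list mean was 0.51 to 1.27 on TAM naive arrays, 4.96 to 5.10 on M1 arrays and 5.23 to 5.50 on M0 naive arrays. The list's signal summed over its genes was 230 to 400, 1820 to 2130 and 2070 to 2670 times the scaling percentile in the same groups. Both include the brightest Itgam probe, described below, at 8.44, 7.19 and 7.52 in TAM naive. That probe made up most of the summed signal on each TAM naive array. The markers therefore went against the labelled cell type, and TAM naive is used below only as the name of these arrays. No macrophage identity gene was below background on all arrays of either group. In bulk samples such as these, fewer macrophages and less RNA per macrophage cannot be told apart.

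The 1 macrophage gene called higher was Itgam, the integrin chain CD11b, and its value depended on the probe and on single arrays. The brightest Itgam probe had levels of 8.44, 7.19 and 7.52 in TAM naive and 5.58, 6.70, 7.28 and 6.53 in M1 (change 1.20, SE 0.43, adjusted p = 0.047), with overlapping groups. Without TAM naive array 1 or 4, or without M1 array 1, 2 or 4, it was no longer called, with adjusted p-values of 0.0766 to 0.179 and changes of 0.83 to 1.29. The other 2 probes changed by -3.19 and -0.67. The 60-base probes are shown because the brightest one holds an uninterrupted CA repeat, marked in capitals, and the other 2 do not. They lie on mouse chromosome 7, plus strand, of mm9 at 135261755 to 135261814, 135260275 to 135260334 and 135212140 to 135212199.
Itgam brightest probe: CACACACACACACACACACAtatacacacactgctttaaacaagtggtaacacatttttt
Itgam second probe: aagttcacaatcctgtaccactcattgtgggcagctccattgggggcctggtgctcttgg
Itgam dimmest probe: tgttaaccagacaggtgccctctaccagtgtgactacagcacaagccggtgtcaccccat

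Marchf1, a ubiquitin ligase that removes MHC class II and CD86 from the cell surface, showed the same split. Its brightest probe (mm9 chromosome 8, 68992804 to 68992863, plus strand) had levels of 7.87, 6.62 and 6.49 in TAM naive and 4.23, 5.60, 6.34 and 5.35 in M1, a change of 1.62 (SE 0.51, adjusted p = 0.028). Its other probe (68994134 to 68994193) changed by -5.07, in the opposite direction. The brightest probe's change was not called without TAM naive array 1 (1.18, adjusted p = 0.116) or M1 array 4 (1.61, adjusted p = 0.062). Capitals again mark a run of at least 6 CA in a row.
Marchf1 brightest probe: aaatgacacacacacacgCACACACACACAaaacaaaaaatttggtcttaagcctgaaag
Marchf1 dimmer probe: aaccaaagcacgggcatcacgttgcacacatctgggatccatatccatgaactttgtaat

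Over all genes tested, 60 were represented by a probe with at least 6 CA in a row, and 55 of these (91.7%) were called higher in TAM naive and 0 lower, beside 26.0% and 22.9% of all genes. Their median level was 4.97 to 6.50 on TAM naive arrays and 2.99 to 4.50 on M1 arrays. Of 110 genes whose probe holds at least 6 TG in a row, 2 were called higher and 8 lower. Itgam and Marchf1 were the only listed genes represented by a CA repeat probe, and Ms4a4c, not called, the only one by a TG repeat probe; these genes were picked out after their values were seen.

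**Figure D1:**
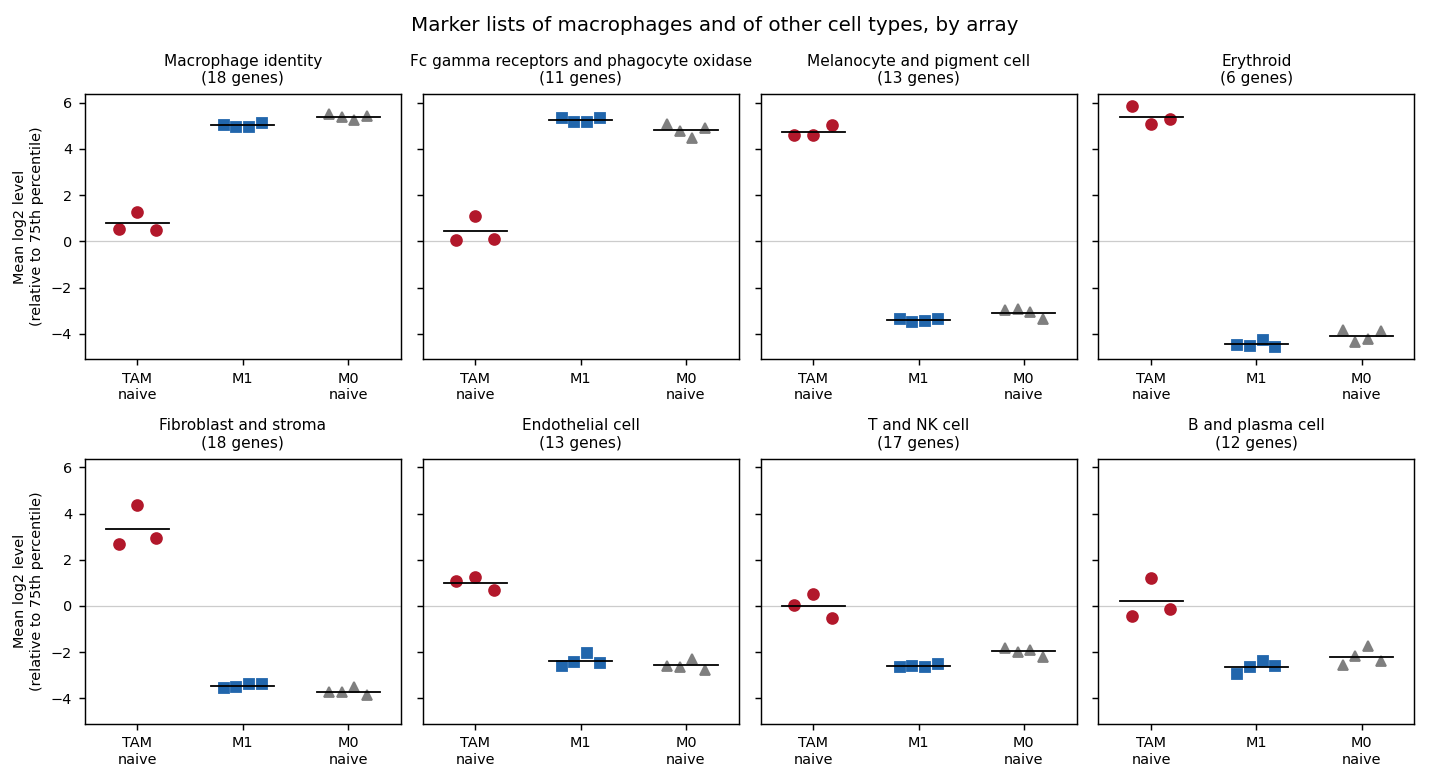
Mean log2 level of 8 marker lists on each array, relative to the array's 75th percentile, for TAM naive (3 arrays), M1 (4) and M0 naive (4), with a bar at each group mean. The macrophage list lies at 0.51 to 1.27 on TAM naive arrays and at 4.96 to 5.10 on M1 arrays, while the pigment cell, erythroid and stromal lists run the other way. The macrophage list includes the brightest Itgam probe, which holds a CA repeat.

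Genes of pigment cells, red cells and stroma were the highest above M1. Of 13 melanocyte and pigment cell genes, 11 were higher in TAM naive, 0 lower and 2 not called (median change 8.49, or 7.49 with genes not above background in M1 at their lower bound). Their summed signal was 1750 to 2320 in TAM naive, against 14.1 to 19.4 in M1 and 21.6 to 23.9 in M0 naive. Dct, dopachrome tautomerase, had levels of 9.62, 9.47 and 9.76 in TAM naive and was above background on no M1 array, which makes it at least 16953-fold higher (adjusted p = 6.8e-09). Tyrp1, a second enzyme of melanin synthesis, had levels of 8.52, 8.54 and 8.91 in TAM naive and was at least 8708-fold higher. Neither gene overlapped between groups, and both were also below background on all M0 naive arrays. Pmel, the fibril protein of melanosomes, had levels of 8.37, 8.25 and 8.79 in TAM naive and -2.91, -3.31, -3.46 and -3.71 in M1 (change 11.82, SE 0.25). Mlana, another melanosome protein, had a change of 11.67 (SE 0.26) and was above background on 3 of the 4 M1 arrays, and Mc1r, the melanocortin receptor of melanocytes, was at least 459.9-fold higher. Here and below, a fold given as "at least" sets the brighter group against the lowest signal that counted as above background on each array of the dimmer group. Where the probe's own signal was higher than that, its own signal was used. Probes not counted as above background can lie above that lowest signal, so these folds are not strict limits.

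All 6 erythroid genes measured were higher in TAM naive (median change 10.99, or 10.02 with the bounds), with a summed signal of 1530 to 2540 in TAM naive, against 0.592 to 0.847 in M1. Hbb-bt, an adult beta-globin, had levels of 8.80, 8.24 and 8.40 in TAM naive and was above background on no M1 array (at least 7708-fold higher). Hba-a1, an alpha-globin, had levels of 9.07, 8.17 and 8.38 in TAM naive and -3.32, -3.01, -2.92 and -3.64 in M1 (change 11.76, SE 0.29). Globin genes are near-identical copies, so their probes may share signal. Alas2, which starts heme synthesis in red cell precursors, is a single gene and was at least 144-fold higher, with levels of 3.43, 2.28 and 2.51 in TAM naive. On TAM naive array 1 all 3 of these erythroid genes were highest.

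Of 18 fibroblast and stromal genes, 17 were higher in TAM naive and 1 was not called (median change 7.59, or 6.75 with the bounds), and their summed signal was 556 to 1630 in TAM naive, against 7.28 to 14.6 in M1. Col3a1, a fibrillar collagen of connective tissue, had levels of 5.37, 7.70 and 5.95 in TAM naive and was above background on no M1 array (at least 1508-fold higher, adjusted p = 6e-07). Col6a1, a microfibrillar collagen chain, was at least 221-fold higher. Sparc, a secreted collagen-binding protein, had levels of 8.16, 9.11 and 8.19 in TAM naive and -0.47, 0.12, 1.23 and 0.44 in M1 (change 8.16, SE 0.41). Fn1, fibronectin, changed by 9.43 (SE 0.44, 3 of 4 M1 arrays above background) and Thy1, a surface protein of fibroblasts and T cells, by 7.51 (SE 0.40). TAM naive array 3 was the highest of the 3 for each of these 5 stromal genes, with its Col3a1 level at 7.70 beside 5.37 and 5.95. The single genes with the largest changes included further matrix genes. Serpinh1, the collagen chaperone HSP47, changed by 10.26 (SE 0.25), Pcolce, which enhances procollagen cleavage, by 9.50 (SE 0.37), each with 3 of 4 M1 arrays above background, and Aebp1, a collagen-binding carboxypeptidase-like protein, by 9.48 (SE 0.20). Fbln5, an elastic fibre protein, was at least 1318-fold higher by its brighter probe, but its second probe changed by only 3.74. Gsta2, a glutathione transferase, was at least 1326-fold higher and Car6, a secreted carbonic anhydrase, at least 1319-fold. Rab38, a GTPase of melanosome transport, changed by 8.14 (SE 0.23), and Cited1, a transcriptional coactivator found in melanocytes, by 7.90 (SE 0.28).

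The promoters of Dct and Tyrp1 are printed because both genes lay among the largest increases and hold TCATGTG. These 7 bases are the core of the longer M-box, which the melanocyte factor MITF binds. Matches of TCATGTG on either strand are in capitals. The sequences are RefSeq windows of GRCm38.p6, from 250 bases before to 50 bases after the start, at chr14:118052197-118052496 (minus strand) and chr4:80833963-80834262 (plus strand).
Dct promoter: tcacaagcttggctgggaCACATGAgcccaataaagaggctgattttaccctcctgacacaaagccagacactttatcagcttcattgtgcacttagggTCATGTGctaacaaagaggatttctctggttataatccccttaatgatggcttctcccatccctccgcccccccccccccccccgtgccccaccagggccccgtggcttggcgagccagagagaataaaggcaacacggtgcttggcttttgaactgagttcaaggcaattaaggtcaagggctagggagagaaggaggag
Tyrp1 promoter: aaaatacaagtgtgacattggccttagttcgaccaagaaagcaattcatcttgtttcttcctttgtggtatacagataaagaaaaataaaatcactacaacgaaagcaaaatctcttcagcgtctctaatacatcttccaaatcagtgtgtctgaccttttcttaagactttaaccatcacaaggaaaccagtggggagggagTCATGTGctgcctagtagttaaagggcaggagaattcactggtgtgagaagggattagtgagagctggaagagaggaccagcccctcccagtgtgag

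Dct held 2 matches and Tyrp1 held 1. Of the 11 promoter windows of 8 pigment cell genes found in the table, 5 (45.5%) held TCATGTG, against 3.77% of all 32851 windows. These are letter matches, and binding was not measured.

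Endothelial, lymphoid, mast cell and dendritic cell genes were higher too. Of 13 endothelial genes, 9 were higher and 0 lower in TAM naive (median change 3.57, or 2.86 with the bounds, summed signal 61.4 to 84.3 in TAM naive, against 19.8 to 31.2 in M1). Robo4, an endothelial guidance receptor, was at least 116-fold higher and Cdh5, VE-cadherin, at least 47.6-fold, and Egfl7, a protein secreted by endothelium, changed by 6.99 (SE 0.25). Of 17 T and NK cell genes, 14 were higher, 1 was lower and 2 were not called (median change 2.60, summed signal 23.8 to 41.0 in TAM naive, against 9.60 to 18.8 in M1). Cd2, an adhesion receptor of T cells, was at least 74.9-fold higher by its brighter probe, but its second probe changed by 3.1. Cd3g, a chain of the T cell receptor complex, was at least 8.08-fold higher. Zap70, the kinase beneath that receptor, changed by 3.52 (SE 0.31), and by 1.57 with its second probe. The gene that was lower was Cd28, the T cell costimulatory receptor, with levels of -0.89, -0.33 and -1.58 in TAM naive, against 0.28, 0.07, 0.06 and 0.35 in M1 and 4.09 to 5.11 in M0 naive.

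Of 12 B and plasma cell genes, 9 were higher and 0 lower (median change 2.57, summed signal 21.2 to 57.8 in TAM naive, against 6.80 to 11.2 in M1). Ms4a1, the B cell antigen CD20, had levels of 0.72, 3.31 and 1.31 in TAM naive and -2.83, -2.45, -0.73 and -1.97 in M1 (change 3.78, SE 0.66). Jchain, the joining chain of secreted antibodies, changed by 5.77 (SE 0.61), with 1 M1 array above background. Of 9 mast cell and basophil genes, 7 were higher and 0 lower (median change 3.33, or 2.20 with the bounds, summed signal 17.7 to 41.8 in TAM naive, against 4.29 to 11.8 in M1). Kit, the stem cell factor receptor that melanocytes also carry, was at least 46.8-fold higher, and Cpa3, the mast cell carboxypeptidase, at least 18.9-fold. Of 12 dendritic cell genes, 8 were higher and 2 lower (median change 2.97, or 2.49 with the bounds). Their summed signal overlapped between the groups, at 415 to 593 in TAM naive and 317 to 420 in M1. Clec9a, a receptor for dead cells on cross-presenting dendritic cells, was at least 4.56-fold higher, and Fscn1, an actin bundler of mature dendritic cells, changed by 4.14 (SE 0.26). The 2 lower genes were transcription factors, Irf8 (change -2.96, SE 0.25), which macrophages also use, and Zbtb46 (change -2.06, SE 0.36).

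Genes of neutrophils and inflammatory monocytes were split. Of 16 neutrophil genes, 6 were higher and 5 lower, and the list's median of 0.10 changed sign in 3 of the alternative settings (-0.05 without TAM naive array 3, 0.00 without M1 array 3). S100a9, a subunit of calprotectin, had levels of 6.04, 8.10 and 5.01 in TAM naive and -1.19, -0.69, -1.35 and -0.92 in M1 (change 7.42, SE 0.61, adjusted p = 1.5e-05), but M0 naive arrays had 7.08 to 7.27. M1 was thus the group that stood apart for this gene. Retnlg, a resistin-like peptide of neutrophils, was at least 69.8-fold higher. Ly6g, the usual neutrophil surface marker, was lower, with levels of -2.61, -0.56 and -1.15 in TAM naive, against 4.34, 4.16, 4.07 and 4.25 in M1 and -2.79 to -1.91 in M0 naive (change -5.64, SE 0.43). Of 11 inflammatory monocyte genes, 6 were higher and 2 lower (median change 1.65). Their summed signal ran the other way, at 160 to 298 in TAM naive and 463 to 652 in M1. Ccr2, the receptor that draws monocytes out of marrow, changed by 2.91 (SE 0.40) and F13a1, a transglutaminase of monocytes, by 5.08 (SE 0.26), each above background on 3 of the 4 M1 arrays. The second F13a1 probe changed by 3.08. Ly6c1 was lower by a change of -3.90 (SE 0.44), but its second probe changed by -0.9. Ly6g and Ly6c1 belong to a family of close paralogs whose probes may share signal. Of 10 epithelial genes, 2 were higher, 1 was lower and 7 were not called (median change 0.43), with Cdh1, E-cadherin, at least 1.98-fold higher, Lgals7, a keratinocyte galectin, at least 7.78-fold higher and Krt10, a keratin of differentiated epidermis, lower (change -2.45, SE 0.31, above background on 2 of the 3 TAM naive arrays).

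**Figure D2:**
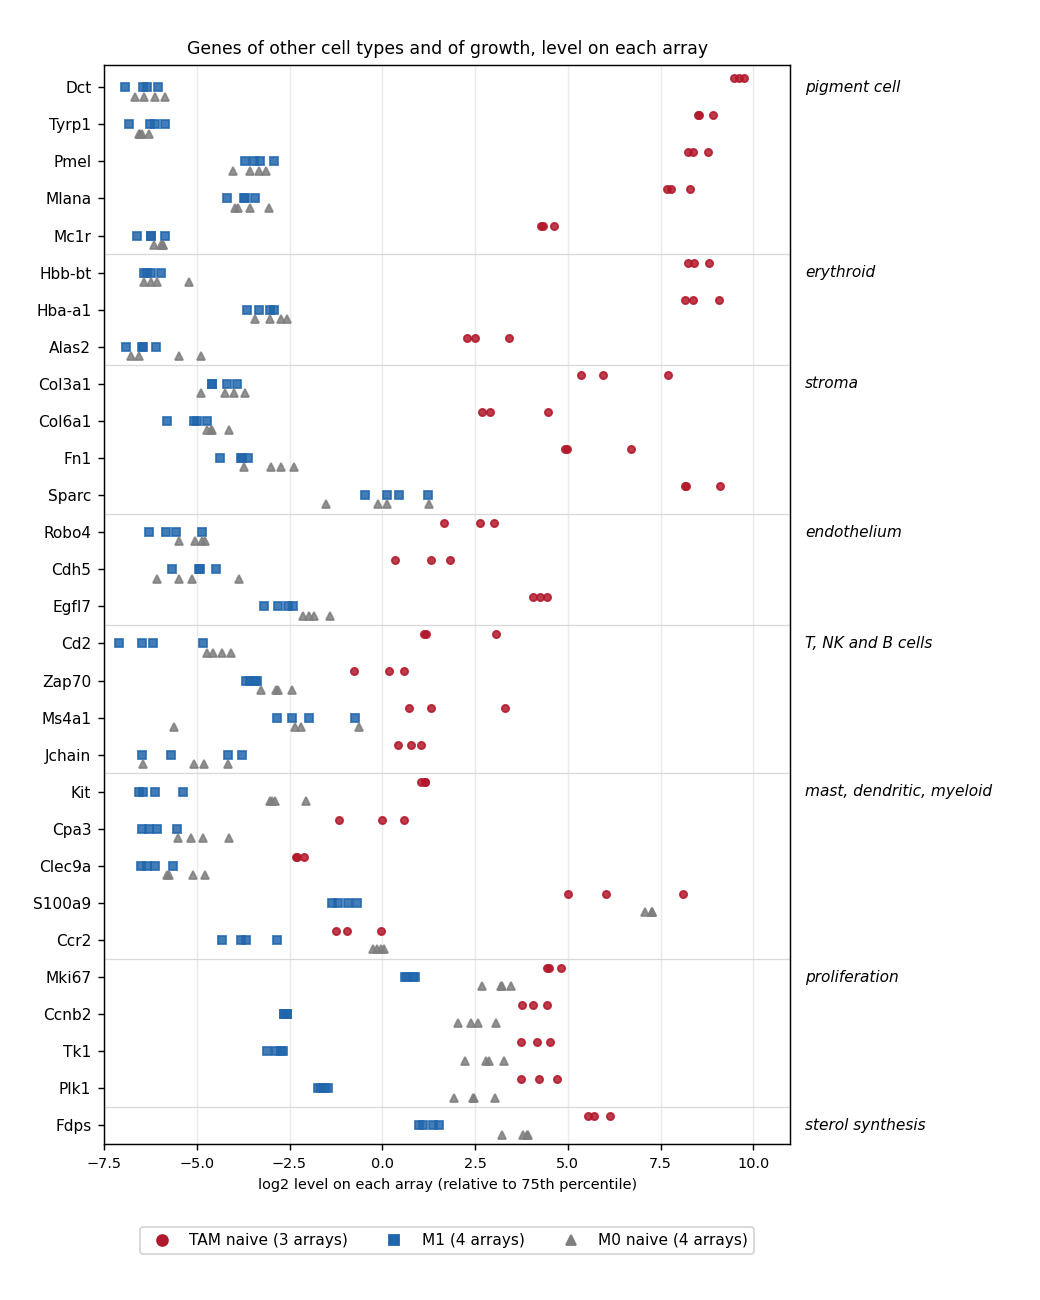
Log2 level on each array, relative to the array's 75th percentile, of genes of other cell types and of growth, with TAM naive above M1 and M0 naive within each row. For the pigment, erythroid, stromal and endothelial genes the 3 TAM naive arrays lie above all 8 culture arrays, with Dct at 9.47 to 9.76, whereas S100a9 and Ccr2 lie near the M0 naive arrays.

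Across the whole array, 14401 of 29447 genes (48.9%) were called, 7644 higher and 6757 lower in TAM naive. Of the called genes, 2510 had a fitted increase and 2367 a fitted decrease of 4-fold or more, genes with only a bound included, and 15060 genes (51.1%) had groups that did not overlap. At an unadjusted p below 0.05 the count was 16615 (56.4%). Among genes called higher, 1051 were above background on no M1 array, and among genes called lower, 407 were above background on no TAM naive array. Within each of the 3 slides the change had the same sign as the pooled one for 14342 of the called genes (99.6%). The slides hold the same arrays that made the calls, and groups that do not overlap must keep their sign in every slide. That share is therefore no separate evidence for the calls. With slide as a block 17383 genes were called, 10136 higher and 7247 lower. TAM naive arrays spread more than M1 arrays, with a median SD of 0.397 against 0.261 over genes. The median change over all genes was 0.27 with 75th percentile scaling and 0.068 after quantile normalization, so list medians close to these values are near the centre of all genes. Of 744 genes in 43 lists, 697 passed the filter and were measured, and some genes of other cell types passed it through the TAM naive arrays alone, so that their counts are descriptions. The macrophage identity, pigment, erythroid and stromal levels given above moved with the 2 groups throughout. Their part in the changes below was not tested. As a scale, 324 genes (1.1% of those tested) were called with a change below -4.71, the macrophage identity median.

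**Figure D3:**
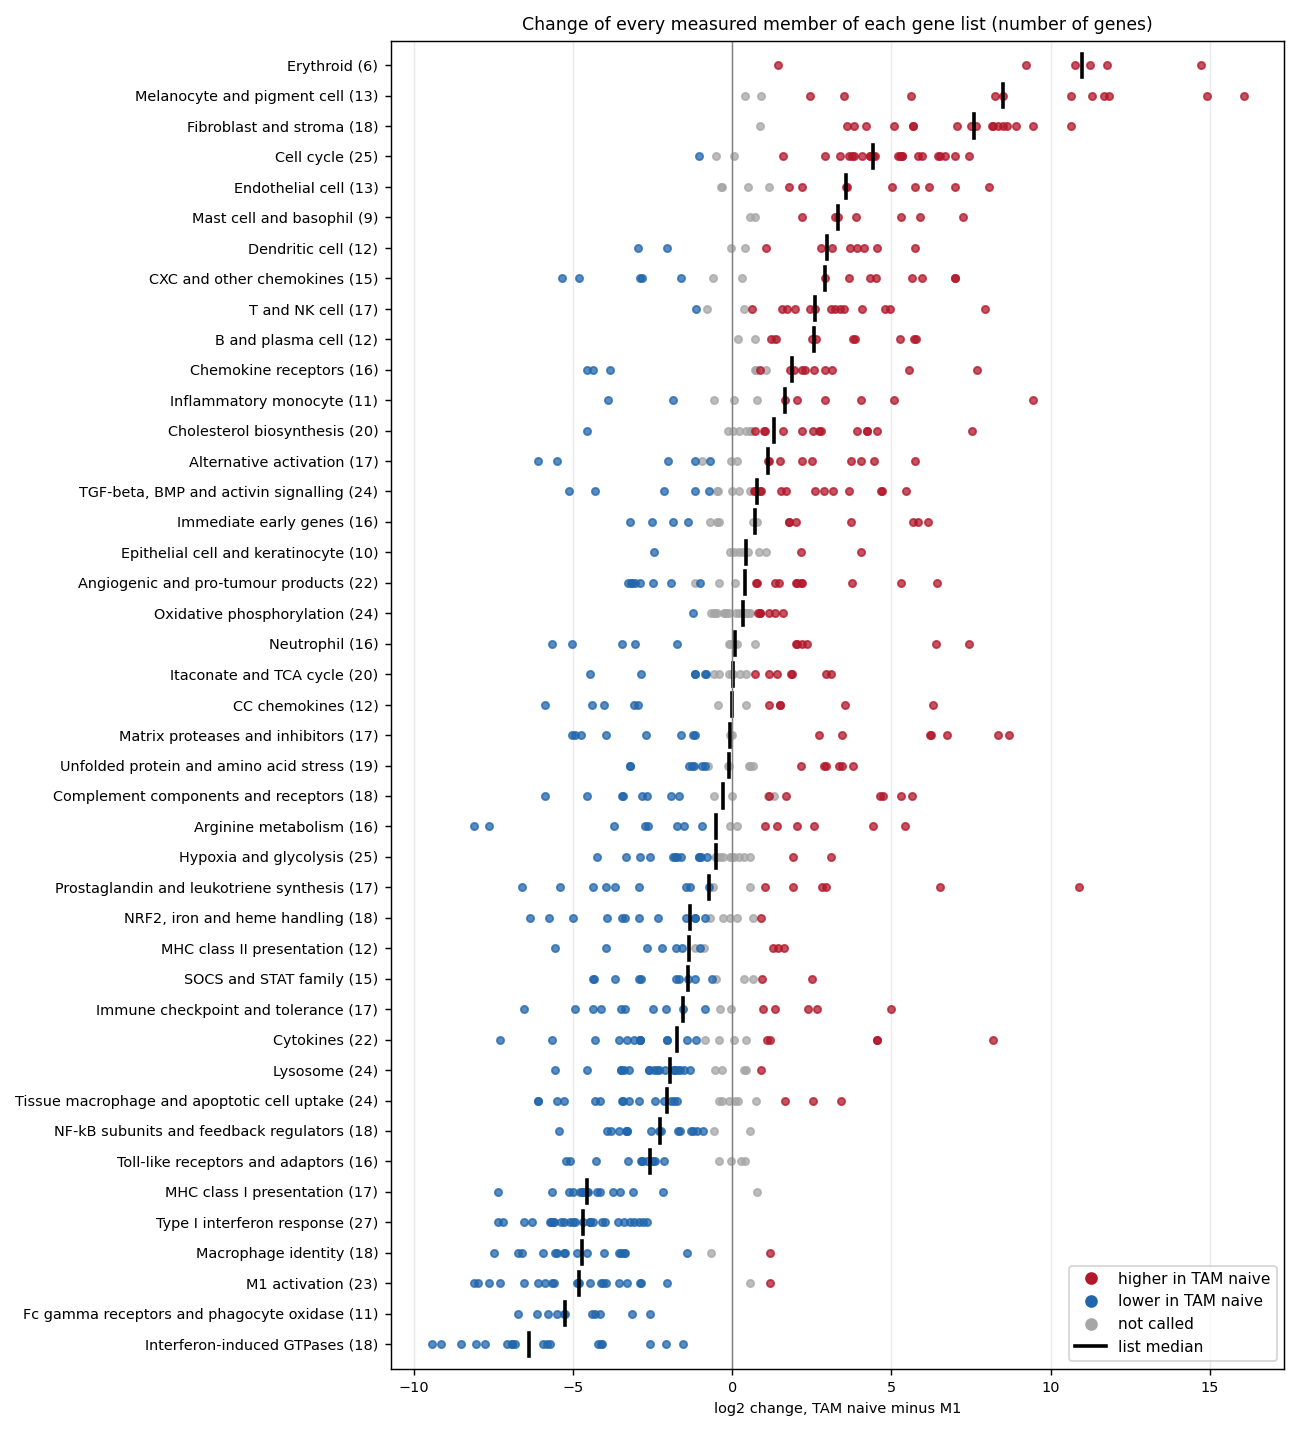
Log2 change (TAM naive minus M1) of every measured member of the 43 gene lists, one row a list, ordered by the list median (black bar). Red points were called higher and blue points lower in TAM naive, and grey points were not called. Interferon-induced GTPases lie lowest (median -6.38) and erythroid genes highest (10.99).

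Genes of Fc receptors, Toll-like receptors and lysosomes were lower with the macrophage genes. All 11 Fc gamma receptor and phagocyte oxidase genes were lower in TAM naive (median change -5.24). Fcgr1, the high-affinity receptor for IgG, had levels of -2.50, -2.23 and -2.39 in TAM naive, against 3.37, 2.90, 3.01 and 3.24 in M1 and 3.81 to 4.34 in M0 naive. Fcgr3 changed by -5.78 (SE 0.24) and Fcgr4, the IgG receptor that interferon-gamma raises, by -6.13 (SE 0.36). Of 16 Toll-like receptor and adaptor genes, 12 were lower, 0 higher and 4 not called (median change -2.58). Tlr4, the lipopolysaccharide receptor, had levels of -1.61, -1.49 and -1.41 in TAM naive and 1.02, 0.88, 0.85 and 1.15 in M1 (change -2.48, SE 0.19). Myd88, the adaptor most Toll-like receptors share, changed by -2.84 (SE 0.28), and Irak3, a kinase-like inhibitor of that pathway, by -5.20 (SE 0.36). Ticam2, the adaptor that carries TLR4 signals towards interferon-beta, was above background on no TAM naive array and at least 7.61-fold lower. Of 24 lysosomal genes, 19 were lower, 1 was higher and 4 were not called (median change -1.96). Ctss, cathepsin S, had levels of 3.09, 4.42 and 3.39 in TAM naive and 9.16, 9.0, 9.29 and 9.32 in M1, Ctsb, cathepsin B, changed by -3.38 (SE 0.20), and Npc2, which moves cholesterol out of lysosomes, by -4.57 (SE 0.30). The gene that was higher was Tfeb, a transcription factor of lysosomal genes, at -0.18, 0.05 and 0.39 in TAM naive and -0.73, -1.01, -0.79 and -0.82 in M1 (change 0.92, SE 0.21, adjusted p = 0.0067).

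The M1 activation genes were lower almost throughout. Of 23 measured, 21 were lower, 1 was higher and 1 was not called (median change -4.82), and their summed signal was 101 to 281 in TAM naive, 3760 to 4340 in M1 and 210 to 317 in M0 naive. Nos2 had levels of 0.45, 1.97 and 0.80 in TAM naive, against 8.91, 8.59, 8.55 and 8.82 in M1 (change -7.64, SE 0.35, adjusted p = 5.5e-07), while M0 naive had 0.11 to 0.53. TAM naive and M0 naive arrays thus overlapped for this gene. The 60-base Nos2 probe that gave these values, at mm9 chromosome 11, 78773567 to 78773626 on the plus strand, and the Dct probe, at chromosome 14, 118412029 to 118412088 on the minus strand, are shown because Nos2 sets the M1 arrays apart from the others and Dct the TAM arrays.
Nos2 probe: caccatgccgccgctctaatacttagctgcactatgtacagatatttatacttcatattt
Dct probe: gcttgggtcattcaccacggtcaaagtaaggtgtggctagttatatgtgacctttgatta

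Not every inflammatory gene was at the M0 level in TAM naive. Il1b, the cytokine interleukin-1 beta, had levels of 4.29, 6.13 and 4.00 in TAM naive and 8.16, 8.04, 8.04 and 8.23 in M1 (change -3.31, SE 0.46, adjusted p = 0.00035), and M0 naive had -0.37 to -0.10. TAM naive therefore lay between the cultures, above every M0 naive array and below every M1 array. Il6, interleukin-6, had levels of 2.42, 4.93 and 2.75 in TAM naive and 5.49, 5.34, 5.17 and 5.68 in M1 (change -2.05, SE 0.54, adjusted p = 0.012), while M0 naive arrays were not above background. On the slide that held TAM naive array 3 the Il6 change was only -0.41, while it was -2.74 and -3.01 on the other 2, and the call was lost without TAM naive array 1 (-1.58, adjusted p = 0.053) or array 4 (-1.75, adjusted p = 0.0535). Ptgs2, the inducible cyclooxygenase, had the same order, at 1.45, 3.51 and 1.55 in TAM naive, 6.14, 6.11, 5.89 and 6.33 in M1 and -5.87 to -3.19 in M0 naive. Array 3 was the highest TAM naive array for all 3 of these genes. Tnf, tumour necrosis factor, had levels of 1.73, 2.28 and 2.16 in TAM naive and 5.68, 5.52, 5.61 and 5.58 in M1 (change -3.54, SE 0.21), and Il1a, interleukin-1 alpha, changed by -7.30 (SE 0.35). Cd86, a T cell costimulator, changed by -2.86 (SE 0.31), Cd38, an NAD-consuming surface enzyme, by -5.58 (SE 0.25), and Marco, a scavenger receptor, by -6.09 (SE 0.21). Saa3, an acute phase protein of macrophages, spread widely, with levels of 0.02, 4.13 and 1.65 in TAM naive, against 9.81, 9.87, 10.00 and 10.01 in M1 (change -7.99, SE 0.78).

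Of 22 cytokine genes, 13 were lower, 5 higher and 4 not called (median change -1.72). Il12b, the p40 subunit of interleukin-12 and the only M1 activation gene called higher, was dim everywhere, at -3.22, -2.90 and -3.37 in TAM naive and -4.96, -4.08, -4.02 and -4.32 in M1, where it was above background on 1 of 4 arrays. Ifnb1, interferon-beta, was higher in TAM naive, with levels of 0.55, 1.28 and 0.99, against -3.75, -3.84, -3.36 and -3.55 in M1 and -6.64 to -5.57 in M0 naive (change 4.56, SE 0.24, adjusted p = 1.1e-06). Its groups did not overlap, and the change was 5.12, 4.74 and 4.00 within the 3 slides. Il33, an alarmin of stromal and endothelial cells, was at least 66.6-fold higher, and Csf2, the growth factor GM-CSF, at least 7.96-fold. Csf1, the growth factor of macrophages, changed by 1.09 (SE 0.33), but by 0.67 without TAM naive array 3 (adjusted p = 0.0589) and by 1.12 without M1 array 2 (adjusted p = 0.0501). Il10, a cytokine that dampens macrophage activation, was lower, at -1.55, -0.83 and -1.41 in TAM naive and 0.04, 0.06, 0.17 and 0.31 in M1 (change -1.41, SE 0.23). Il15, a growth factor of NK cells, changed by -4.30 (SE 0.41) and Ebi3, a subunit of interleukin-27, by -5.64 (SE 0.35).

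Interferon-induced genes were lower throughout, and the GTPases had the lowest median of the 43 lists. All 18 interferon-induced GTPases were lower in TAM naive (median change -6.38, or -6.12 with the bound of 1 gene), and 12 of them changed by more than the macrophage identity median. Gbp2, a guanylate-binding protein that attacks vacuoles of pathogens, had levels of -0.59, 0.37 and -0.45 in TAM naive, against 8.99, 8.81, 8.87 and 8.96 in M1 (change -9.13, SE 0.26, adjusted p = 7.2e-08), and M0 naive had 1.72 to 2.58. TAM naive lay below both sets of cultures. Gbp4 changed by -8.04 (SE 0.39), Tgtp2, a GTPase of the same defence system, by -7.75 (SE 0.23), and Irgm1, a regulator of these GTPases, by -5.95 (SE 0.20). Gbp8 was above background on no TAM naive array and at least 78.2-fold lower. Several GBP and IRG genes are close paralogs, so their probes may share signal.

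All 27 genes of the type I interferon response were lower in TAM naive as well (median change -4.67), with a summed signal of 49.6 to 81.6 in TAM naive, 1410 to 1730 in M1 and 327 to 503 in M0 naive. Irf7, the factor that amplifies interferon production, had levels of -2.75, -1.71 and -1.65 in TAM naive, against 5.41, 5.14, 5.54 and 5.20 in M1 and 1.80 to 2.10 in M0 naive (change -7.36, SE 0.30). The 3 groups did not overlap, with TAM naive lowest. Oas3, which makes the 2'-5' oligoadenylates that activate RNase L, was above background on no TAM naive array and 146-fold lower as fitted. Its own signal lay above the lowest above-background signal of each TAM naive array, so its bound equals the fitted fold. Rsad2, viperin, changed by -5.71 (SE 0.24) and Stat2, a subunit of the type I interferon transcription complex, by -4.38 (SE 0.28). Ifnb1, the ligand upstream of this response, ran the opposite way, as given above.

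The promoters of Gbp2 and Oas3 are shown because both genes fell far and carry the core of the interferon-stimulated response element (GAAA, 2 bases of any kind, GAAA), in capitals on either strand. The RefSeq windows of GRCm38.p6 are chr3:142620413-142620712 (plus strand) and chr5:120777610-120777909 (minus strand).
Gbp2 promoter: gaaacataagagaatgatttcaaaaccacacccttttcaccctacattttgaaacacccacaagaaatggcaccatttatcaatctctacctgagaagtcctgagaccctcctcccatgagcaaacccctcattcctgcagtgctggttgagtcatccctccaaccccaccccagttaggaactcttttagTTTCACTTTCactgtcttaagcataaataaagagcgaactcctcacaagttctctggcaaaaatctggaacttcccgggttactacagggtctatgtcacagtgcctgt
Oas3 promoter: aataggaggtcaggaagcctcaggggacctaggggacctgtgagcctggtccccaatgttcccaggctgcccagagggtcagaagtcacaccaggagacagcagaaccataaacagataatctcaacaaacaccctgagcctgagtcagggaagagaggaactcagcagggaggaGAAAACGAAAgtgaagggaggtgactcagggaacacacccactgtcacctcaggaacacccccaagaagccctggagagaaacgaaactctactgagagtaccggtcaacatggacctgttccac

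Each window held 1 match. The interferon element was found in 9 of 11 windows (81.8%) of 10 GTPase genes and in 10 of 21 windows (47.6%) of 19 type I response genes, against 3.44% of all 32851 windows. It was also found in 2 of 11 windows (18.2%) of macrophage identity genes, 1 of 22 of cell cycle genes and 0 of 11 of pigment cell genes. Another motif searched, TTCNNNGAA with N any base, was in 54.5% of the GTPase windows, against 8.3% of all windows. Both strands were searched and different motifs may overlap. These matches describe the windows and are not measured binding.

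Genes of MHC class I presentation were lower almost throughout, and those of class II were divided. Of 17 class I genes, 16 were lower, 0 higher and 1 not called (median change -4.54), and 4 of their 18 promoter windows (22.2%) held the interferon element. Psmb8 and Psmb9, subunits of the immunoproteasome, changed by -4.77 (SE 0.23) and -5.12 (SE 0.22). Tap1, a subunit of the peptide transporter, had levels of -3.83, -4.08 and -2.60 in TAM naive, where 2 of 3 arrays were above background, and 4.03, 3.47, 4.17 and 3.70 in M1. Of 12 class II genes, 7 were lower, 3 higher and 2 not called (median change -1.35). H2-Ab1, a class II beta chain, had levels of 5.92, 7.75 and 6.61 in TAM naive and 8.45, 8.17, 8.27 and 8.39 in M1 (change -1.56, SE 0.39, adjusted p = 0.0091), beside 3.67 to 4.72 in M0 naive. Cd74, the invariant chain, was ordered the same way, at 3.62, 5.49 and 4.51 in TAM naive, 6.65, 6.82, 6.70 and 6.75 in M1 and 2.60 to 3.16 in M0 naive (change -2.19, SE 0.39). For both genes TAM naive lay between the cultures without overlap. H2-Aa changed by -1.76 (SE 0.33) and H2-DMa, which helps load peptide, by -3.95 (SE 0.36). The higher genes were H2-Ob, an inhibitor of that loading found in B cells (change 1.44, SE 0.35), H2-Eb2 (change 1.29, SE 0.42, overlapping groups) and Marchf1 by its CA repeat probe. The call of H2-Eb2 was lost without TAM naive array 3 or 4 or M1 array 1, 2 or 4 (changes of 1.07 to 1.30, adjusted p of 0.0612 to 0.0924).

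NF-kB and JAK-STAT regulators were mostly lower in TAM naive. Of 18 NF-kB subunits and feedback regulators, 16 were lower and 2 not called (median change -2.25). Traf1, an adaptor induced by NF-kB, had levels of 1.77, 2.97 and 1.45 in TAM naive, 7.64, 7.43, 7.35 and 7.53 in M1 and 0.62 to 1.38 in M0 naive (change -5.43, SE 0.35), so every TAM naive array lay above M0 naive and far below M1. Tnip1, which restrains NF-kB with A20, changed by -3.31 (SE 0.21) and Ikbke, a kinase of the interferon pathway, by -3.92 (SE 0.27). Of 15 SOCS and STAT genes, 10 were lower, 2 higher and 3 not called (median change -1.40). Socs1, the feedback inhibitor of interferon-gamma signalling, had levels of 0.10, 1.39 and -0.10 in TAM naive and 4.82, 4.70, 4.80 and 4.94 in M1 (change -4.35, SE 0.35). Socs3, which acts on interleukin-6 signalling, changed by -3.68 (SE 0.36) and Stat6, the factor downstream of IL-4, by -2.87 (SE 0.22). The higher members were Socs2 (change 2.50, SE 0.46), a regulator of growth hormone signalling, and Socs5 (change 0.93, SE 0.21). The 4 Socs2 probes ranged from 0.78 to 2.50.

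**Figure D4:**
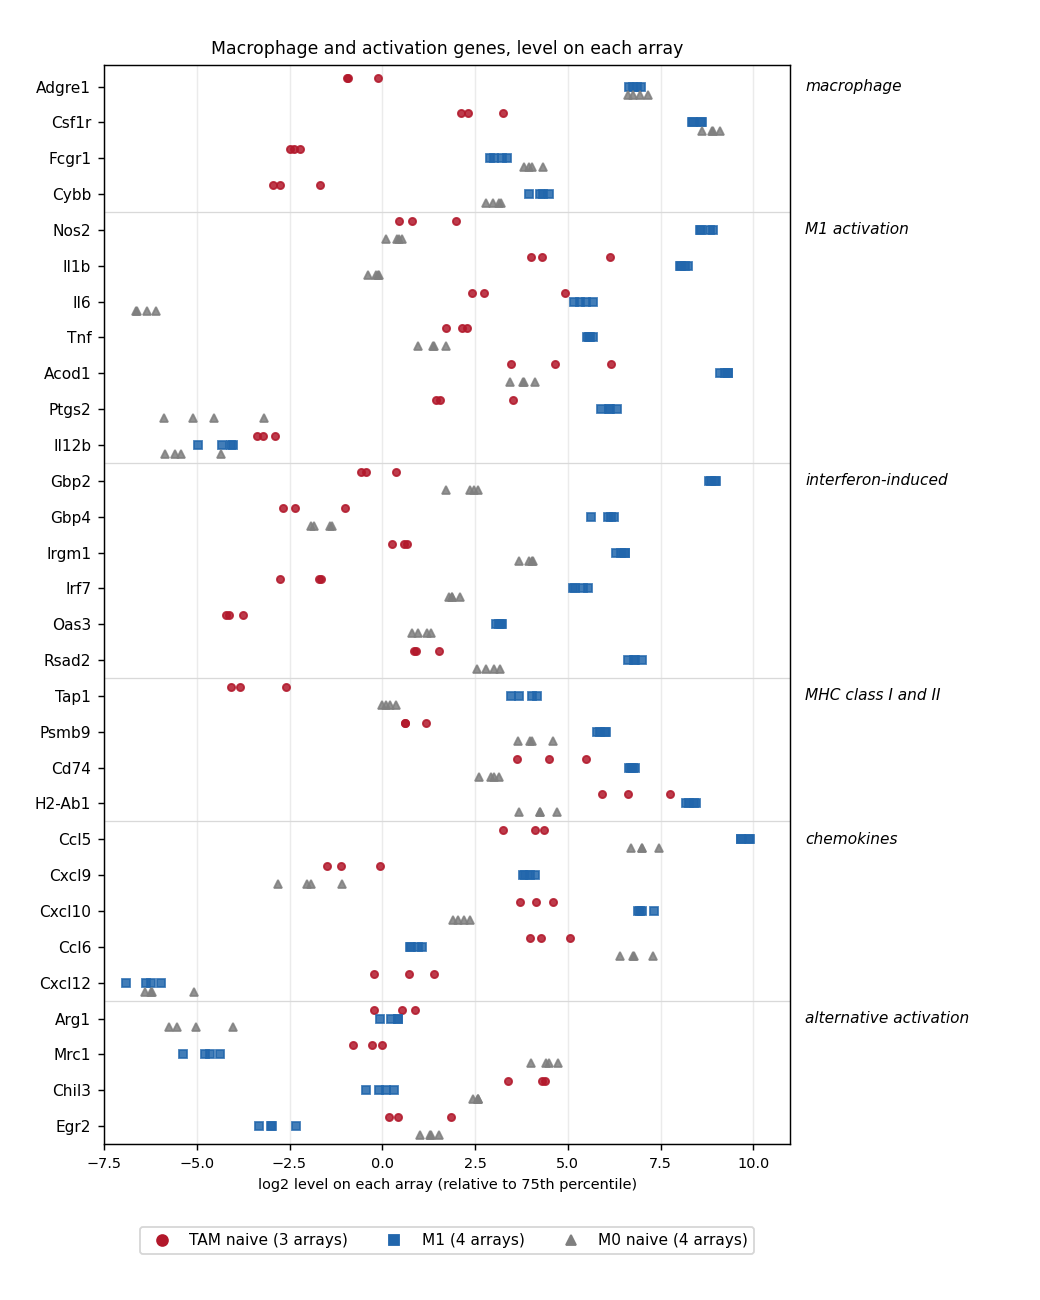
Log2 level on each array, relative to the array's 75th percentile, of macrophage and activation genes, with TAM naive above M1 and M0 naive within each row. Nos2 lies at 0.45 to 1.97 in TAM naive and 8.55 to 8.91 in M1, Il1b and Ptgs2 in TAM naive lie between M1 and M0 naive, and Arg1 overlaps between TAM naive and M1.

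Arginine use was compared because Nos2 and the arginases compete for it. Of 16 genes of arginine metabolism, 8 were lower, 6 higher and 2 not called (median change -0.51). Arg1, arginase 1, had levels of -0.23, 0.54 and 0.89 in TAM naive and 0.22, 0.43, -0.06 and 0.44 in M1, a change of 0.14 with a 95% interval of -0.53 to 0.81 (adjusted p = 0.71, and -0.11 to 0.46 on leaving out single arrays), while M0 naive had -5.74 to -4.02. The TAM naive and M1 arrays overlapped and both lay above M0 naive. Slc7a2, a cationic amino acid transporter that feeds Nos2, was above background on no TAM naive array and at least 272-fold lower. Ass1, which recycles citrulline to arginine, changed by -3.71 (SE 0.26), Gch1, which makes the Nos2 cofactor tetrahydrobiopterin, by -2.64 (SE 0.38), and Arg2, the mitochondrial arginase, by -2.74 (SE 0.43). Ddah1, which degrades methylated arginines that inhibit nitric oxide synthases, ran the other way and was at least 11.6-fold higher.

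Of 20 itaconate and TCA cycle genes, 7 were higher and 6 lower, and the list's median of 0.02 changed sign in 8 of the alternative settings, normexp background correction among them (-0.25 without TAM naive array 4, -0.01 without M1 array 2). Acod1, the enzyme that makes itaconate, had levels of 4.66, 6.18 and 3.47 in TAM naive, against 9.32, 9.10, 9.23 and 9.31 in M1 and 3.45 to 4.11 in M0 naive (change -4.47, SE 0.53). Its TAM naive and M0 naive arrays overlapped. Idh2, the mitochondrial NADP-dependent isocitrate dehydrogenase, was higher (change 3.1, SE 0.25), and Idh3b, a subunit of the NAD-dependent one, was lower (change -2.85, SE 0.41). Of 25 hypoxia and glycolysis genes, 12 were lower, 2 higher and 11 not called (median change -0.52). Pfkfb3, which makes the activator of phosphofructokinase, changed by -4.24 (SE 0.26) and Slc2a1, the glucose transporter GLUT1, had levels of 3.88, 4.27 and 4.22 in TAM naive, against 6.73, 6.64, 6.64 and 6.78 in M1 and 2.25 to 2.61 in M0 naive. TAM naive lay between the cultures for GLUT1. The 2 higher genes were Car9, the hypoxia-induced carbonic anhydrase, with levels of 3.47, 3.67 and 3.94 in TAM naive and 0.87, 0.45, 0.22 and 0.85 in M1, and Slc2a3, the transporter GLUT3 (change 1.90, SE 0.26).

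Of 17 prostaglandin and leukotriene genes, 9 were lower and 6 higher (median change -0.74). Ptgds, the lipocalin-type prostaglandin D synthase, which melanocytes also make, had levels of 7.48, 7.60 and 7.87 in TAM naive, against -3.29, -2.94, -2.98 and -3.70 in M1 (change 10.88, SE 0.25, adjusted p = 3e-08). Ptgis, the prostacyclin synthase of vessels, was at least 66.4-fold higher by its brighter probe, but its second probe changed by 0.00. Ptger2, a receptor for prostaglandin E2, changed by -5.40 (SE 0.27) and Alox5ap, the protein that serves 5-lipoxygenase, by -4.37 (SE 0.22). Of 18 NRF2, iron and heme genes, 12 were lower, 1 higher and 5 not called (median change -1.31). Slc11a1, the phagosomal metal transporter NRAMP1, had levels of 0.38, 1.43 and 0.35 in TAM naive and 7.26, 7.02, 6.96 and 7.07 in M1 (change -6.36, SE 0.29). Slc7a11, the cystine transporter, changed by -5.76 (SE 0.38) with 2 of 3 TAM naive arrays above background, and the higher gene was Cp, ceruloplasmin (change 0.92, SE 0.31). The change of Cp was 0.62 without TAM naive array 3 (adjusted p = 0.115), and its call was also lost without TAM naive array 4 or M1 array 2, 3 or 4 (adjusted p of 0.0621 to 0.0731).

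Chemokines were divided between those that rose and those that fell. Of 12 CC chemokines, 5 were higher and 5 lower (median change 0.00, below 0 in 8 of the alternative settings, normexp background correction among them, at -0.38 without TAM naive array 3 and -0.12 without M1 array 2). Ccl5, which draws T cells, had levels of 4.35, 4.12 and 3.24 in TAM naive and 9.67, 9.67, 9.88 and 9.92 in M1 (change -5.88, SE 0.28), and Ccl2, the ligand of Ccr2, changed by -4.03 (SE 0.37). Ccl11, eotaxin, was at least 17.7-fold higher. Ccl6 was higher in TAM naive, at 3.98, 5.05 and 4.27, against 1.08, 0.76, 0.77 and 0.96 in M1, but M0 naive had 6.40 to 7.31, above both. Of 15 CXC and other chemokines, 8 were higher, 5 lower and 2 not called (median change 2.92). Their summed signal overlapped between the groups, at 722 to 960 in TAM naive and 662 to 899 in M1. Cxcl9 and Cxcl10, interferon-induced ligands of Cxcr3, changed by -4.82 (SE 0.33) and -2.89 (SE 0.26), and Cxcl16 by -5.33 (SE 0.34). The second Cxcl10 probe changed by -0.31. By the brighter probe, Cxcl10 in TAM naive, at 3.72, 4.16 and 4.60, still lay above M0 naive, at 1.91 to 2.35. Among those that rose, Cxcl12, the stromal ligand of Cxcr4, was at least 33.5-fold higher, Cxcl13, which attracts B cells, at least 28.8-fold, and Ppbp, a platelet chemokine, at least 16.5-fold.

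Of 16 chemokine receptors, 10 were higher, 3 lower and 3 not called (median change 1.88, or 1.76 with the bounds). Their summed signal overlapped between the groups, at 27.9 to 78.4 in TAM naive and 37.9 to 44.1 in M1. Ackr3, a scavenging receptor for Cxcl12, was at least 52.4-fold higher. Ccr7, which guides cells to lymph nodes, had levels of 3.72, 5.70 and 4.02 in TAM naive and 1.46, 1.29, 1.27 and 1.36 in M1 (change 3.14, SE 0.43). Cx3cr1, the fractalkine receptor of resident macrophages, was higher by 2.30 (SE 0.25) with 1 of 4 M1 arrays above background, although M0 naive, at 0.60 to 1.90, exceeded both. Cxcr4 was not called, with levels of 0.68, 1.92 and 0.31 in TAM naive and 0.20, 0.13, 0.18 and 0.38 in M1, a change of 0.75 and a 95% interval of -0.06 to 1.56 (adjusted p = 0.11). Without TAM naive array 4 the change was 1.08 (adjusted p = 0.0357) and without array 3 it was 0.28.

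Of 17 alternative activation genes, 9 were higher, 5 lower and 3, Arg1 among them, not called (median change 1.13). Their summed signal ran the other way, at 74.2 to 130 in TAM naive, 504 to 677 in M1 and 132 to 199 in M0 naive. Mrc1, the mannose receptor CD206, had levels of -0.79, -0.27 and -0.01 in TAM naive and was above background on no M1 array (at least 16.6-fold higher), while M0 naive had 4.02 to 4.72. TAM naive therefore lay between the cultures, above M1 and below M0 naive. Chil3, the chitinase-like protein Ym1, had levels of 3.38, 4.32 and 4.38 in TAM naive, -0.10, -0.43, 0.31 and 0.11 in M1 and 2.43 to 2.59 in M0 naive (change 4.05, SE 0.31), which put TAM naive highest. Egr2, an IL-4 induced transcription factor that growth signals also raise, changed by 3.73 (SE 0.42), and Cd209a, a lectin of dendritic cells, was at least 17.8-fold higher. Msr1, scavenger receptor A, was lower (change -6.08, SE 0.20), as were Tgm2, transglutaminase 2 (change -5.51, SE 0.41), and Retnla, the secreted protein FIZZ1 (change -0.70, SE 0.23, adjusted p = 0.032). The call of Retnla was lost without TAM naive array 1 or 4 or M1 array 1, 2 or 4 (changes of -0.73 to -0.56, adjusted p of 0.0561 to 0.0939).

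Among 24 genes of tissue macrophages and apoptotic cell uptake, 15 were lower, 3 higher and 6 not called (median change -2.04). Trem2, a lipid-sensing receptor, had levels of 0.58, 1.38 and 0.54 in TAM naive, against 6.45, 6.16, 6.38 and 6.38 in M1 and 8.62 to 9.08 in M0 naive (change -5.51, SE 0.26). Mertk, which binds apoptotic cells through bridging proteins, changed by -5.29 (SE 0.26), C1qb, a chain of the first complement component, by -3.44 (SE 0.23), and C1qa by -1.93 (SE 0.25). Apoe, the lipid carrier, was higher, with levels of 6.01, 6.28 and 6.66 in TAM naive, against 3.23, 2.69, 2.94 and 2.76 in M1 (change 3.41, SE 0.24), and M0 naive had 8.08 to 9.04. Pros1, a bridging protein, changed by 2.55 (SE 0.23), and Lyve1, a hyaluronan receptor of lymphatic endothelium and some macrophages, was at least 2.15-fold higher, a call that was lost without TAM naive array 1 (adjusted p = 0.0588). Apoe and Mrc1 thus shared an order in which M1 was lowest and M0 naive highest.

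Of 18 complement genes, 8 were lower and 6 higher, and the median of -0.28 changed sign in 2 of the alternative settings (0.22 without TAM naive array 1). Cfb, factor B of the alternative pathway, had levels of 0.36, 3.03 and 1.32 in TAM naive and 7.52, 7.36, 7.40 and 7.49 in M1 (change -5.88, SE 0.53), and C3ar1, the receptor for C3a, changed by -4.56 (SE 0.30). C2, the classical pathway counterpart of factor B, ran the other way, at 4.84, 4.80 and 4.95 in TAM naive and -0.18, -0.45, -0.63 and -0.45 in M1 (change 5.29, SE 0.20). C4b changed by 4.74 (SE 0.36) and Serping1, the inhibitor of C1, by 5.66 (SE 0.43). Of 17 immune checkpoint and tolerance genes, 10 were lower and 5 higher (median change -1.54). Cd274, the ligand PD-L1 that interferon-gamma induces, had levels of 1.51, 2.88 and 1.07 in TAM naive, against 8.62, 8.28, 8.08 and 8.42 in M1 and 3.26 to 4.07 in M0 naive (change -6.53, SE 0.40). Ido1, which degrades tryptophan, was at least 4.45-fold lower, and Cd47, the signal that blocks phagocytosis, changed by -3.49 (SE 0.25). Pdcd1 and Lag3, inhibitory receptors carried by T cells, were higher, Pdcd1 by 1.33 (SE 0.46, adjusted p = 0.039) and Lag3 by at least 1.87-fold. Pdcd1 was above background on 3 of 4 M1 arrays, and its call was lost without TAM naive array 1 or 3 or M1 array 1 or 2 (changes of 0.98 to 1.34, adjusted p of 0.0693 to 0.153).

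Of 17 matrix proteases and inhibitors, 7 were higher and 8 lower, and the median of -0.07 reached 0 or above in 4 of the alternative settings (0.33 without TAM naive array 1, 0.08 without array 4, 0.00 without M1 array 4). Mmp3, stromelysin, was at least 100.5-fold higher, Mmp2, a gelatinase of fibroblasts, at least 28.0-fold, and Timp3, a matrix-bound inhibitor, at least 49.0-fold. Adamts1, a proteoglycan-cleaving protease, changed by 8.70 (SE 0.25), with 1 of 4 M1 arrays above background. Mmp12, the macrophage elastase, was lower, at -3.13, -3.84 and -3.74 in TAM naive and 0.93, 1.21, 1.33 and 1.23 in M1 (change -4.75, SE 0.24), and Mmp13, a collagenase, changed by -3.96 (SE 0.21). Of 22 angiogenic and pro-tumour products, 11 were higher, 8 lower and 3 not called (median change 0.41). Their summed signal ran the other way, at 185 to 311 in TAM naive and 721 to 850 in M1. Vegfa, the main growth factor of blood vessels, had levels of 1.83, 2.50 and 2.02 in TAM naive and 4.76, 4.50, 4.29 and 4.79 in M1 (change -2.47, SE 0.24), so it was lower in TAM naive. Vegfc, which acts on lymphatic vessels, was higher (change 3.77, SE 0.24). Ereg and Areg, ligands of the EGF receptor, were at least 22.3-fold and at least 9.07-fold higher. Igf1 changed by -3.06 (SE 0.34), although its 5 probes ranged from -3.11 to 0.37, and Spp1, osteopontin, by -1.93 (SE 0.31).

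Of 24 genes of TGF-beta, BMP and activin signalling, 13 were higher, 5 lower and 6 not called (median change 0.77). Their summed signal ran the other way, at 59.0 to 95.5 in TAM naive and 286 to 344 in M1. Inhba and Inhbb, the chains of activin A and activin B, moved in opposite directions. Inhba had levels of 0.49, 2.65 and 0.01 in TAM naive, against 6.37, 6.17, 5.86 and 6.33 in M1 (change -5.13, SE 0.55). Inhbb had 0.71, 1.31 and 0.16 in TAM naive and -3.85, -4.05, -5.19 and -5.90 in M1 (change 5.47, SE 0.51), with 2 of 4 M1 arrays above background. Tgfb1 was lower (change -2.13, SE 0.21), as was Tgfbi, a matrix protein it induces (change -4.30, SE 0.35), and Tgfb3 was higher (change 3.16, SE 0.26).

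Genes of proliferation were higher in TAM naive. Of 25 cell cycle genes, 22 were higher, 1 lower and 2 not called (median change 4.43, or 4.33 with the bounds), and their summed signal was 317 to 491 in TAM naive, 58.3 to 67.4 in M1 and 181 to 277 in M0 naive. Ccnb2, a mitotic cyclin, had levels of 3.78, 4.05 and 4.44 in TAM naive, against -2.64, -2.58, -2.64 and -2.56 in M1 and 2.03 to 3.06 in M0 naive (change 6.69, SE 0.22, adjusted p = 1.1e-07). TAM naive was highest and M1 lowest, with no overlap among the 3 groups. Mki67, the Ki-67 antigen of cycling cells, changed by 3.83 (SE 0.20), Tk1, the thymidine kinase of S phase, by 6.99 (SE 0.25) and Plk1, a mitotic kinase, by 5.83 (SE 0.26). The second Tk1 probe changed by 3.12. The 1 lower gene was E2f1, a factor that drives entry into S phase, at 1.06, 1.37 and 1.70 in TAM naive and 2.65, 2.19, 2.35 and 2.49 in M1 (change -1.04, SE 0.23). The pigment and stromal lists were high on the same arrays, and which cells carried the cycle genes was not measured.

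Of 20 cholesterol synthesis genes, 13 were higher, 1 lower and 6 not called (median change 1.31). Fdps, which makes farnesyl diphosphate, had levels of 5.54, 5.71 and 6.14 in TAM naive, against 1.35, 0.98, 1.53 and 1.11 in M1 and 3.23 to 3.93 in M0 naive (change 4.55, SE 0.24). The 3 groups did not overlap, with TAM naive highest and M1 lowest. Srebf2, the transcription factor of the pathway, was the lower gene by its brightest probe (change -4.55, SE 0.19), but its second probe changed by 1.57. Of 24 oxidative phosphorylation genes, 6 were higher, 1 lower and 17 not called, and the median of 0.33 was close to that of all genes and changed sign in 2 of the alternative settings. Atp5o, a subunit of ATP synthase, changed by 1.61 (SE 0.22), Uqcrc1, of complex III, by 1.16 (SE 0.29), and Sdhd, the anchor of succinate dehydrogenase, by -1.22 (SE 0.24).

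Of 19 genes of the unfolded protein and amino acid response, 7 were lower and 6 higher, and the median of -0.10 changed sign in 4 of the alternative settings, quantile normalization among them (0.02 without TAM naive array 1, 0.07 without array 4). Psat1, an enzyme of serine synthesis, had levels of 3.31, 3.70 and 3.99 in TAM naive and 0.02, -0.33, -0.16 and 0.02 in M1 (change 3.78, SE 0.23), and Asns, asparagine synthetase, changed by 2.16 (SE 0.22). The second Psat1 probe changed by 1.69. Ddit3, the stress factor CHOP, was lower (change -3.20, SE 0.29). Of 16 immediate early genes, 7 were higher, 4 lower and 5 not called (median change 0.71). Egr1 had levels of 3.60, 5.24 and 3.47 in TAM naive, against -1.35, -1.72, -1.59 and -1.61 in M1 and 0.34 to 1.06 in M0 naive (change 5.67, SE 0.41), and Fosb, a subunit of the factor AP-1, changed by 6.15 (SE 0.37). Junb, another subunit, was lower (change -2.51, SE 0.26), as was Dusp1, the phosphatase that ends MAP kinase signals (change -1.40, SE 0.34). TAM naive array 3 was again the highest of its group for Egr1, Fosb and Dusp1.

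Most of the genes with the largest decreases lay higher in M1 than in M0 naive. Il18bp, the decoy that binds interleukin-18, had levels of -2.41, -2.67 and -2.94 in TAM naive, against 7.10, 6.78, 6.75 and 6.92 in M1 and 2.07 to 2.96 in M0 naive (change -9.56, SE 0.22, adjusted p = 3e-08). Slamf8, a surface receptor of activated myeloid cells, changed by -8.72 (SE 0.20), Aoah, which inactivates lipopolysaccharide, by -7.95 (SE 0.23), and Bst1, an NAD-using ectoenzyme of marrow cells, by -7.85 (SE 0.39). Ms4a6d, a membrane protein of macrophages, changed by -7.82 (SE 0.23) and Fpr1, the receptor for formylated bacterial peptides, by -7.40 (SE 0.61). Orm2, an acute phase glycoprotein, was above background on no TAM naive array and at least 286-fold lower. Tbc1d9 was at least 120.0-fold lower, and Cd200r4, a relative of the CD200 receptor, at least 72.4-fold lower, although for Cd200r4 the M0 naive arrays, at 1.86 to 2.79, overlapped those of M1.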

How the data were processed

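Agilent mouse expression arrays were hybridised in 1 colour (Cy3) with 100 ng of RNA per sample, per the labels' protocols. The deposited scanner files hold probe intensities that Feature Extraction had background-subtracted and detrended, per the file headers, which give version 10.7.3.1, while the submitters' processing notes name version 12.5. The log2 value table that the authors deposited was only compared with the scanner files and was not used, because 22 of its 24 columns matched another sample's file best (5 of the 7 used here). For each array the 75th percentile was taken over the probes that are not controls, and log2 of the processed intensity minus log2 of that percentile was the level. Probes well above background on 3 or more arrays of a group were kept, and the brightest probe stood for a gene. Where a gene had further kept probes, these could change less or more, and only some of their values are given. TAM naive and M1 were compared with limma 3.58.1 in R 4.3.3 (lmFit and eBayes, two-sided, Benjamini-Hochberg over 29447 genes). The text names genes among the 15 largest changes in each direction above background in both groups without overlap, the 8 largest bounds in each direction, up to 5 called members of each list in each direction by smallest p, and 30 fixed genes; a few listed genes are not reported here by name. Members and lists were chosen with earlier results of these data known. In simulated data of the same size, only 200 genes were changed. Of these, 54% of those changed by 2 on the log2 scale and 3% of those changed by 1 were called, with 3 false calls. In the real data 48.9% of genes were called, a far larger share than was changed in the simulation. The adjustment was therefore stricter in the simulation, and its rates do not carry over to the real comparison. Array number, 3 against 4, limits the precision. A bound used the lowest signal among probes above background on each dim array, or the probe's own signal where higher. Promoters came from RefSeq (GRCm38.p6), and probe positions are mm9, per the file headers. The alternatives were normexp background correction, quantile normalization, other filters, slide or replicate number as a block, other variance models, the mean of a gene's probes, the excluded array added, and each array left out.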

Additional observations from a re-analysis of the deposited data

Results flagged for a closer look

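In M1, 250 genes and list means of the text were examined for an array far from its 3 companions, and 7 stood out. Chance alone gives about 1 in 20, which is a larger share. The arrays listed here are therefore not set apart from chance. M1 array 3 was low for Csf1, at 0.51 beside 0.93 to 0.97, for Krt10, at -1.48 beside -1.19 to -1.15, and for Pcolce, at -4.41 beside -3.92 to -3.90. M1 array 4 was high for Ccl2, at 9.02 beside 8.70 to 8.74, for Retnla, at -0.01 beside -0.45 to -0.41, and for the mean of the M1 activation list, at 5.09 beside 4.90 to 4.93. M1 array 1 was high for Atp5o, at 4.03 beside 3.86 to 3.89. With 3 arrays, TAM naive was not examined in this way.

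The excluded TAM naive array 2, which entered no comparison, carried the pigment signal too. Its Dct level was 7.11, against -6.93 to -6.03 in M1, and its Tyrp1 level was 5.22, against -6.84 to -5.86 in M1.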

How the results depend on the processing

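Of the 205 called genes named, 186 kept their call in all 17 alternative fits, and 202 kept their sign in those fits and in each slide alone. The single slides reuse the arrays of the main fit. The call of Il6 was lost only without TAM naive array 1 or 4. With TAM naive array 2 added, the calls of Atp5o, Cd28, Cp, Csf1, Dusp1, H2-Eb2, Il12b, Itgam, Pdcd1, Pros1, Retnla, Sdhd, Slc2a3, Socs5, Tfeb and Uqcrc1 were lost. With replicate numbers as a block, those of Cd28, Cp, Csf1, Dusp1, H2-Eb2, Itgam, Lyve1, Marchf1, Pdcd1, Retnla, Socs5, Tfeb and Uqcrc1 were lost. Quantile normalization lost Cp, Dusp1, Il12b, Itgam, Marchf1, Pdcd1 and Socs5, and 1 fit of all 23 arrays lost Cp, H2-Eb2, Itgam, Lyve1, Marchf1, Pdcd1 and Retnla. Without a filter on dim probes Cp, H2-Eb2, Itgam, Pdcd1 and Retnla were lost, with 1 variance per group H2-Eb2, Itgam, Marchf1 and Pdcd1, and with normexp background correction Lyve1. The exceptions in sign were Itgam and Marchf1, which changed by -0.89 and -1.73 with the mean of all probes, and Uqcrc1, which changed by -0.41 with TAM naive array 2 added. Of the 43 list medians, 36 kept their sign, and the other 7 are given with their lists. The count of called genes was 9091 (4412 higher) with replicate numbers as a block and 7910 (3891 higher, 4019 lower) with TAM naive array 2 added; the causes were not tested. In the other fits with all arrays it lay between 12826 and 17383. Leaving out single arrays gave 11765 to 15925 called genes, 5972 to 8968 higher and 5793 to 7165 lower. Deviations from the group means of same-numbered arrays correlated at -0.575, -0.444 and 0.041 for numbers 1, 3 and 4. The highest value, 0.585, was for TAM naive array 1 and M1 array 3, which shared a slide. These values gave no sign that the numbers pair the samples, but 3 pairs cannot settle it. Genes not well above background have only bounds, and 3 TAM naive arrays cannot tell small changes from spread.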

Other observations

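The first principal component of all arrays used held 58.3% of the variance and the second 22.7%. The excluded TAM naive array 2 had a 75th percentile of 49.2 intensity units and 42.4% of probes above background, beside 270 to 398 units and 63.7 to 66.7% on the 3 TAM naive arrays used.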
